A study of Mus musculus with 18 samples.

Results

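The BCL2 family of the mouse decides, at the outer mitochondrial membrane, whether a stressed cell keeps or loses its mitochondrial integrity, and 10 of its genes were followed here through oocytes, cumulus cells and blastocysts. The members were the rows of the expression table whose gene symbol was Bcl2, Bcl2l1, Bcl2l10, Mcl1, Bax, Bak1, Bad, Bid, Bcl2l11 or Bok. All 10 were found among 52550 genes. The rule reads the symbol alone, and the family was picked with earlier results of these data known.

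As a class, survival members (here Bcl2, Bcl2l1, Bcl2l10 and Mcl1) can bind and hold back members that open pores, such as Bax and Bak1. The effectors Bax, Bak1 and Bok form those pores, through which cytochrome c leaves the mitochondrion and activates caspases. BH3-only members (Bad, Bid and Bcl2l11) sense damage or lost growth signals and either occupy the survival members or activate the effectors. In the ovary this balance governs the loss of germ cells and the death of granulosa cells in follicles that regress, and Mcl1 and Bcl2l10 are among the survival members studied there.

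The libraries came from C57BL/6 mice, with 3 libraries in each of 6 groups: oocytes, cumulus cells and blastocysts, each from a PM2.5 exposure group and from a filtered-air group. PM2.5 is fine airborne particulate matter, and cumulus cells are the granulosa-derived somatic cells that surround the oocyte. The labels name no other allele or agent, nor the age of the mice, the dose and length of exposure or the number of cells per library. Replicates are not tied to separate mice by any label, so p-values measure the spread between these libraries alone. RNA was reverse transcribed straight from lysed cells, tailed at the 3′ end of the first strand and amplified before paired-end sequencing.

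Each value below is the deposited log2(x + 1), where x is the authors' normalized count, and a difference is a difference on that scale, where the changes of low genes come out too small. Read depth per library is not given in the sources used here. Between 16426 and 17987 genes were above 0 in a library. Libraries of the same group correlated across genes at 0.974 to 0.985, those of different tissues at 0.505 to 0.810, and no pair shared more than 0.00803% of its values. Oocyte markers summed to an x of 6790 to 9080 in the oocyte libraries, cumulus and granulosa markers to 475 to 804 in the cumulus libraries, and blastocyst markers to 1930 to 3120 in the blastocyst libraries, and of these lists only Amh, in filtered-air cumulus cells, was listed at 0 in its own tissue. In other tissues the lists reached at most 62.6, 23.8 and 397, in that order. Not every marker was specific. Cyp19a1 of the cumulus list had means of 4.05 and 3.88 in PM2.5 and filtered-air oocytes, against 1.54 and 1.61 in cumulus cells. Id2 of the blastocyst list had means of 8.17 and 8.01 in cumulus cells, against 8.29 and 8.21 in blastocysts. Over all genes the summed x of an oocyte library was 285800 to 310400, below the 425300 to 486900 of cumulus libraries and the 468600 to 493700 of blastocyst libraries. Of 12 genes that most cells use, 8 lay lower in every oocyte library than in every other library and 1, Tbp, lay higher. Actb, for example, had a mean of 2.92 in oocytes, 8.74 in cumulus cells and 9.60 in blastocysts. Every comparison across tissues therefore rests on the authors' scaling, which did not make these totals equal. In such bulk samples fewer cells of a type and less RNA per cell cannot be told apart.

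The promoters of Mcl1, Bax and Bok are shown because these members were lower together in oocytes, by over 3 log2 units, and have 1 listed start each. Each run is the 250 bases before the RefSeq start in GRCm38.p6, written 5′ to 3′ on the gene's strand, and capitals mark GGGCGG (the GC box bound by SP-family factors) on either strand. The windows are chr3:95658471-95658720 on the plus strand for Mcl1, chr7:45466899-45467148 on the minus strand for Bax and chr1:93685325-93685574 on the plus strand for Bok. The Mcl1 window lies inside the annotated span of the gene given below, before its listed start.
Mcl1: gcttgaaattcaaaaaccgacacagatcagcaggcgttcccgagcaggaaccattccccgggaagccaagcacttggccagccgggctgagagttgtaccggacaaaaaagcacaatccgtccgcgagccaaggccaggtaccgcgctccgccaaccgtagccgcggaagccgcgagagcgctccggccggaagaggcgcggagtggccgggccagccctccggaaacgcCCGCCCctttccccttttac
Bax: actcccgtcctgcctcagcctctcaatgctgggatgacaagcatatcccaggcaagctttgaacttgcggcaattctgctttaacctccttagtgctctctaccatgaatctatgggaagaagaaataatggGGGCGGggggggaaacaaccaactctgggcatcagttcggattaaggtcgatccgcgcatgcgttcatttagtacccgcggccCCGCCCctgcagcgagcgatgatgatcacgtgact
Bok: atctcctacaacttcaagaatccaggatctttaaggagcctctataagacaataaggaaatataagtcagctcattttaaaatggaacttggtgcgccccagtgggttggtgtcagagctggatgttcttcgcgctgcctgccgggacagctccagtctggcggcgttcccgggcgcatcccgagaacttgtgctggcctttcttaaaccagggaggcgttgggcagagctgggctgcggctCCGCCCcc
Bax holds GGGCGG at 2 places, Mcl1 and Bok at 1 each, and none of these 3 windows holds CCAAT or TATAAA on either strand. Over the 13 starts listed for 9 members, 8 windows held GGGCGG, 3 held CCAAT, 7 held CANNTG and 0 held TATAAA. Among all 32851 promoters of that length the shares were 32.7%, 33.8%, 66.2% and 12.4%. The GC content was 64.4% for Mcl1, 54.0% for Bax and 55.2% for Bok against a median of 52.4% over all promoters. These are matches of letters only, and Bcl2l10 had no entry in the promoter table.

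Bcl2l10 was the survival gene of the oocyte libraries. The gene, at chromosome 9 from 75347758 to 75351640 (GRCm38.p6), encodes a member known for expression in oocytes, for which cell assays have reported both survival and death activity. In oocytes it stood at 11.36, 11.19 and 11.40 after PM2.5 (replicates 1, 2 and 3, the order kept below) and at 11.16, 11.23 and 11.33 in filtered air. In cumulus cells the values were 3.51, 4.61 and 4.15 after PM2.5 and 3.20, 3.71 and 3.58 in filtered air. In blastocysts they were 0.20, 0.00 and 0.45 after PM2.5 and 0.00, 0.88 and 0.00 in filtered air. The 3 tissues did not overlap, and 3 of the 6 blastocyst libraries listed the gene at 0. By level Bcl2l10 ranked between 9 and 15 among all genes in each oocyte library, between 2082 and 4469 in the cumulus libraries, and at 10457 or lower in blastocysts.

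Mcl1 ran the other way. It lies at chromosome 3 from 95656944 to 95663179 and encodes a short-lived survival protein that mouse embryos need around implantation and that growing mouse oocytes need to persist. In oocytes Mcl1 stood at 0.78, 1.07 and 0.87 after PM2.5 and at 1.14, 0.82 and 1.47 in filtered air. In cumulus cells it stood at 6.79, 6.54 and 6.49 after PM2.5 and at 6.79, 6.65 and 6.73 in filtered air. In blastocysts it stood at 6.04, 6.28 and 6.32 after PM2.5 and at 6.28, 6.56 and 6.34 in filtered air. Every oocyte library lay far below every cumulus and blastocyst library. The cumulus and blastocyst libraries overlapped narrowly, with 2 PM2.5 cumulus libraries below the highest blastocyst library.

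Bcl2l1 encodes BCL-XL and lies at chromosome 2 from 152758732 to 152833803, where it overlaps Cox4i2 and Gm32211. Its oocyte values were 2.56, 2.44 and 3.31 after PM2.5 and 2.79, 2.75 and 2.66 in filtered air. Its cumulus values were 1.93, 2.13 and 2.10 after PM2.5 and 2.15, 1.79 and 1.54 in filtered air. Its blastocyst values were 1.91, 2.0 and 2.61 after PM2.5 and 2.18, 1.95 and 1.89 in filtered air. Oocytes were the highest of the 3 tissues, with 1 blastocyst library (PM2.5 replicate 3) inside their range and cumulus cells and blastocysts overlapping. Bcl2, the founding survival gene, at chromosome 1 from 106538176 to 106714290, was close to absent: it did not exceed 0.25 in oocytes or 0.66 in cumulus cells and was listed at 0 in all 6 blastocyst libraries.

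**Figure D1:**
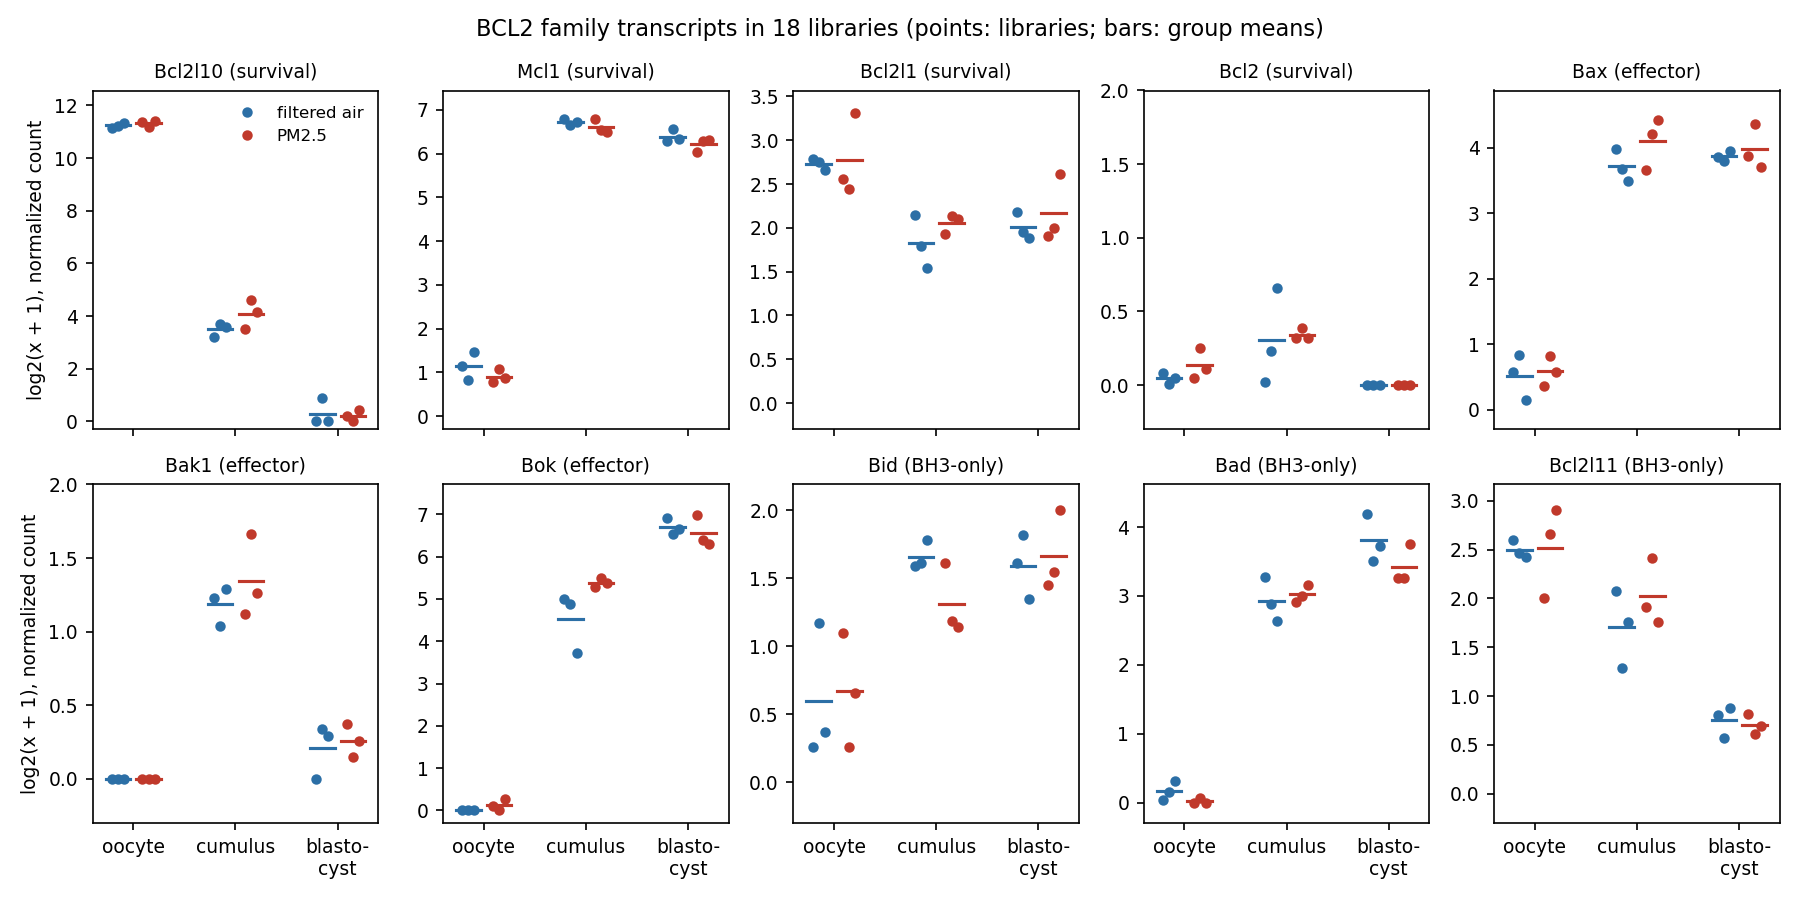
Level of the 10 members, log2(x + 1), in 18 libraries, with a point for each library and a bar for each group mean (n = 3; blue, filtered air; red, PM2.5). Each panel has its own vertical scale; Bcl2l10 is highest in oocytes at 11.16 to 11.40, where Mcl1 does not exceed 1.47.

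The plot of member levels by library shows 2 shapes among the genes that differ most. Bcl2l10 steps down from oocyte to cumulus cell to blastocyst, while Mcl1, Bax, Bok and Bad are near the floor in oocytes and high in both other tissues. The effector Bax, at chromosome 7 from 45461695 to 45466903, moves from the cytosol to mitochondria to form pores. In oocytes Bax stood at 0.36, 0.82 and 0.58 after PM2.5 and at 0.57, 0.83 and 0.15 in filtered air. In cumulus cells Bax reached 3.66, 4.21 and 4.43 after PM2.5 and 3.99, 3.67 and 3.50 in filtered air. In blastocysts Bax reached 3.87, 4.36 and 3.70 after PM2.5 and 3.86, 3.80 and 3.95 in filtered air. No oocyte library came near the other tissues, which overlapped each other.

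Bok, whose name stands for BCL2-related ovarian killer, lies at chromosome 1 from 93685575 to 93695770. It was listed at 0 in the 3 filtered-air oocyte libraries and stood at 0.11, 0.00 and 0.26 in the PM2.5 oocyte libraries. Its cumulus values were 5.28, 5.49 and 5.37 after PM2.5 and 4.99, 4.87 and 3.73 in filtered air. Its blastocyst values were 6.99, 6.40 and 6.30 after PM2.5 and 6.91, 6.54 and 6.66 in filtered air. The 3 tissues were apart, with blastocysts highest, and filtered-air replicate 3 was low among the cumulus libraries. Bak1, the effector that sits in the mitochondrial membrane, at chromosome 17 from 27019812 to 27028627, was listed at 0 in all 6 oocyte libraries. Bak1 stood at 1.12, 1.66 and 1.26 after PM2.5 and at 1.23, 1.04 and 1.29 in filtered air in cumulus cells. In blastocysts its highest value was 0.37. Cumulus cells held the only Bak1 levels above 1.

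Among the BH3-only members, Bad is held inactive by 14-3-3 proteins once growth factor signals phosphorylate it. It lies at chromosome 19 from 6941861 to 6951905 and overlaps Gpr137 and Gm19053. Its oocyte values did not exceed 0.31, and 2 PM2.5 oocyte libraries listed it at 0. Bad stood at 2.91, 3.0 and 3.16 after PM2.5 and at 3.27, 2.88 and 2.63 in filtered air in cumulus cells. The blastocyst libraries held 3.26, 3.26 and 3.75 after PM2.5 and 4.19, 3.51 and 3.72 in filtered air. The highest cumulus library just passed the lowest blastocyst libraries, and oocytes lay apart from both.

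Bcl2l11 encodes BIM, which can engage every survival member; it lies at chromosome 2 from 128126038 to 128162547 and overlaps Acoxl. Bcl2l11 stood at 2.0, 2.66 and 2.90 after PM2.5 and at 2.60, 2.46 and 2.42 in filtered air in oocytes. Its cumulus values were 1.91, 2.41 and 1.76 after PM2.5 and 2.08, 1.29 and 1.76 in filtered air. In blastocysts it did not exceed 0.88. The order ran from oocytes to blastocysts, with oocyte and cumulus libraries overlapping and blastocysts below both. Bid, which caspase-8 cleaves into its active form, at chromosome 6 from 120893119 to 120917062, ranged between 0.26 and 1.17 in oocytes, between 1.14 and 1.78 in cumulus cells, and between 1.35 and 2.0 in blastocysts. Oocyte and cumulus libraries overlapped for Bid, as did cumulus cells and blastocysts, and every oocyte library lay below every blastocyst library. The reads of Bcl2, Bak1 and Bid may also include those of overlapping genes (Mir3473f and Gm37053 for Bcl2, Ggnbp1 for Bak1, Gm17812 for Bid), and for every overlap named here the labels do not say whether counting used the strand.

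The tissues were tested with limma over all 18 libraries for the 10905 genes whose mean was at least 1, with p-values adjusted by Benjamini-Hochberg and called under 0.05. Of the members, 8 entered this test, and Bcl2 and Bak1 fell below the mean. In filtered air 83.5% of all tested genes differed between oocytes and cumulus cells, so a call alone says little about a member. All 8 members were called, 3 higher in oocytes and 5 lower, where 33.7% and 49.8% of all tested genes were. Bcl2l10 was higher in oocytes than in cumulus cells by 7.75 ± 0.26 (SE; adjusted p = 4.03e-14, limma), and only 8 of the 10905 genes had a larger difference in that direction. Mcl1 was lower, at -5.58 ± 0.16 (adjusted p = 5.65e-15), with 263 genes further down. Between oocytes and cumulus cells these survival genes are the family's extremes in either direction.

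Bok differed by -4.53 ± 0.26 (adjusted p = 3.75e-11), which is not a fold since the filtered-air oocytes listed it at 0. For Bax the difference was -3.20 ± 0.23 (adjusted p = 9.73e-10) and for Bad it was -2.76 ± 0.20 (adjusted p = 9.13e-10). Bcl2l1 and Bcl2l11 were the other members higher in oocytes, by 0.90 ± 0.23 (adjusted p = 0.00172) and 0.78 ± 0.23 (adjusted p = 0.00553). Bid was lower, at -1.06 ± 0.25 (adjusted p = 0.000922), a call that was lost under quantile normalization, at -0.23, and under median centring, at -0.51. The median difference of all tested genes was -0.53, and median centring brought it to 0.03 and the share of calls that were higher in oocytes from 40.4% to 50.7%. Relative to that shift the other 7 members kept their direction and their call.

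Against blastocysts in filtered air, where 84.3% of all tested genes were called, the same 3 members were higher in oocytes and the same 5 lower (33.6% and 50.7% of all tested genes). Bcl2l10 was higher by 10.95 ± 0.26 (adjusted p = 5.25e-16), exceeded by 2 genes of 10905. Bok was lower, at -6.70 ± 0.26 (adjusted p = 1.90e-13), with 126 genes further down. Mcl1 followed at -5.25 ± 0.16 (adjusted p = 8.86e-15), Bad at -3.64 ± 0.20 (adjusted p = 2.03e-11) and Bax at -3.35 ± 0.23 (adjusted p = 4.82e-10). Bcl2l11 was higher by 1.74 ± 0.23 (adjusted p = 2.84e-06) and Bcl2l1 by 0.73 ± 0.23 (adjusted p = 0.00815), while Bid, at -0.99 ± 0.25 (adjusted p = 0.00157), lost its call under quantile normalization (-0.28) and median centring (-0.42).

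Between cumulus cells and blastocysts in filtered air 65.0% of all tested genes differed, and 4 of the 8 members did. Bcl2l10 was higher in cumulus cells by 3.20 ± 0.26 (adjusted p = 1.16e-08) and Bcl2l11 by 0.96 ± 0.23 (adjusted p = 0.00191). Bok was lower, at -2.17 ± 0.26 (adjusted p = 1.28e-06), as was Bad, at -0.88 ± 0.20 (adjusted p = 0.000937). The remaining members did not pass: Mcl1 differed by 0.33 (95% interval -0.01 to 0.66, adjusted p = 0.0788), Bcl2l1 by -0.18 (-0.67 to 0.31), Bax by -0.15 (-0.64 to 0.34) and Bid by 0.07 (-0.46 to 0.60). For Mcl1 the call moved with the settings, since the difference passed with a pseudocount of 10 (0.30, adjusted p = 0.0116), quantile normalization (0.70, adjusted p = 0.000463), median centring (0.35, adjusted p = 0.0482) and the 6 libraries of these groups alone (adjusted p = 0.0355).

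The PM2.5 libraries asked the same tissue question in separate samples. There 83.8% of all tested genes differed between oocytes and cumulus cells, 84.1% between oocytes and blastocysts and 63.6% between cumulus cells and blastocysts. Bcl2l10 differed by 7.23 ± 0.26 (adjusted p = 8.95e-14) between oocytes and cumulus cells, by 11.10 ± 0.26 (adjusted p = 4.82e-16) between oocytes and blastocysts, and by 3.87 ± 0.26 (adjusted p = 1.03e-09) between cumulus cells and blastocysts. Mcl1 differed by -5.70 ± 0.16 (adjusted p = 4.46e-15), by -5.30 ± 0.16 (adjusted p = 7.95e-15) and, between cumulus cells and blastocysts, by 0.39 ± 0.16 (adjusted p = 0.0384). Bok, Bax and Bad were again lower in oocytes, with differences from cumulus cells of -5.26, -3.51 and -3.0.

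Calls moved for 3 members between the exposure groups. Bcl2l11, called in filtered air, did not pass between oocytes and cumulus cells after PM2.5 (0.49 ± 0.23, adjusted p = 0.0624). It did pass there under quantile normalization (1.17, adjusted p = 0.000209), median centring (1.11, adjusted p = 0.000337) and a pseudocount of 10 (0.18, adjusted p = 0.0382), and without PM2.5 oocyte replicate 1 (0.75, adjusted p = 0.00655) or PM2.5 cumulus replicate 2 (0.68, adjusted p = 0.0183). Bad did not pass between cumulus cells and blastocysts (-0.40 ± 0.20, adjusted p = 0.0899) after PM2.5. Mcl1, which missed the threshold there in filtered air, passed after PM2.5, but in both groups its call moved with the settings. The PM2.5 call was lost with a pseudocount of 0.1 (adjusted p = 0.135), with the replicate block (0.0661) and with PM2.5 cumulus replicate 1 or 2 or PM2.5 blastocyst replicate 1 or 2 left out (differences of 0.30 to 0.43, adjusted p from 0.0531 to 0.142). None of these shifts of a call shows that a tissue difference changed with exposure. Bcl2l1 passed between oocytes and blastocysts after PM2.5 (0.60 ± 0.23, adjusted p = 0.0246), but not without PM2.5 oocyte replicate 3 (0.32, adjusted p = 0.178) or PM2.5 blastocyst replicate 1 (0.46, adjusted p = 0.103) or 2 (0.51, adjusted p = 0.0828). Without PM2.5 oocyte replicate 3 its difference from cumulus cells also lost its call, at 0.44 (adjusted p = 0.0718). Bid was lower in oocytes than in cumulus cells after PM2.5, at -0.64 ± 0.25 (adjusted p = 0.0261), but quantile normalization turned the estimate to 0.25.

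The make-up of each class was read from x, since x falls with transcript length (slope of log10 x on log10 length -0.77 ± 0.04, SE, over 2510 genes with 1 transcript that were above 0 in all 18 libraries, and -0.47 ± 0.08 over 573 above 0 in 1 library only), less than in proportion, and whether the authors divided by length is not given in the sources used here. Bcl2l10 made up 99.6% to 99.8% of the summed x of the 4 survival members in the oocyte libraries. In cumulus libraries Mcl1 held 77.2% to 90.4% and Bcl2l10 6.76% to 19.7%. The part of oocyte RNA in that Bcl2l10 share was not tested. In blastocysts Mcl1 held 93.5% to 96.7% and Bcl2l10 at most 0.869%. The lead passed from Bcl2l10 to Mcl1 outside the oocyte. With x divided once more by the longest listed transcript, Bcl2l10 held 99.8% to 99.9% in oocytes and 17.0% to 40.9% in cumulus cells, and Mcl1 held 56.0% to 79.4% of the cumulus sum and 90.3% to 95.3% of the blastocyst sum.

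The effectors and BH3-only members changed lead as well. The 3 effectors together summed to an x of only 0.108 to 0.783 in oocytes, of which Bax was 71.5% to 100%. Cumulus libraries summed to 24.1 to 63.5 and blastocyst libraries to 90.2 to 139.7, with Bok at 51.1% to 74.6% and at 80.9% to 90.0%. Bok led in both tissues outside the oocyte by this measure, but with the further division by length it held 45.1% to 69.4% in cumulus cells against 29.3% to 51.7% for Bax, which then led in the library where Bok was lowest. Bcl2l11 made up 72.5% to 95.7% of the BH3-only members in oocytes, whereas Bad made up 51.9% to 68.8% of them in cumulus libraries and 77.4% to 86.0% in blastocyst libraries.

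**Figure D2:**
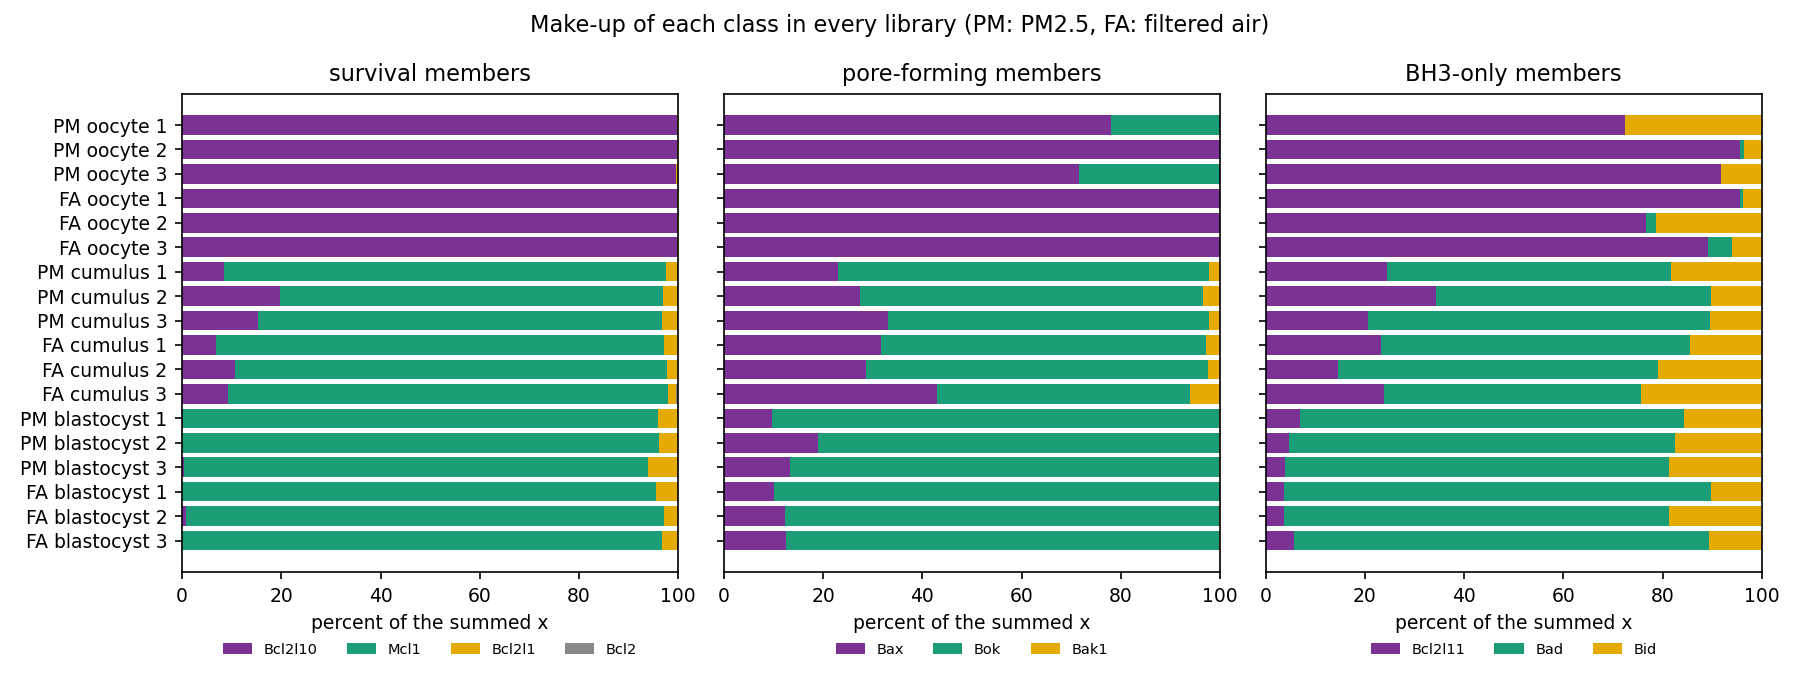
Share of the summed x (percent) that each member holds within its class, for the survival, pore-forming and BH3-only members, in each of the 18 libraries (bars stacked to 100%). Bcl2l10 fills at least 99.6% of the survival bar in oocytes, and Mcl1 at least 77.2% in cumulus cells and 93.5% in blastocysts.

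The bars of class make-up show the change of lead in every library: no cumulus or blastocyst library has Bcl2l10 as its main survival transcript, and no oocyte library has Bok or Bad as the main member of its class.

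The Bcl2l10 signal in cumulus cells was set beside other oocyte transcripts. In x it amounted to 0.405% to 0.919% of the mean oocyte level in the 3 PM2.5 cumulus libraries and to 0.339% to 0.498% in the filtered-air ones. The 8 oocyte markers (Gdf9, Bmp15, Zp1, Zp2, Zp3, Oosp1, H1foo and Ooep) stood at 0% to 1.16% of theirs in the same libraries. Gdf9, an oocyte growth factor, stood at 0.396% to 0.676% after PM2.5 and at 0.358% to 0.485% in filtered air. The ratio of Bcl2l10 to the summed oocyte markers lay between 0.284 and 0.350 in oocytes, between 0.273 and 0.375 in cumulus cells, and between 0 and 0.0339 in blastocysts. In blastocysts Ooep alone held an x of 23.3 to 27.3 of a marker sum of 25.0 to 28.8, so that ratio is set by 1 marker still present there. Cumulus cells therefore held Bcl2l10 and the oocyte markers in about the ratio of the oocyte itself, at under 1.2% of the level. The part of oocyte RNA in this signal was not tested.

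**Figure D3:**
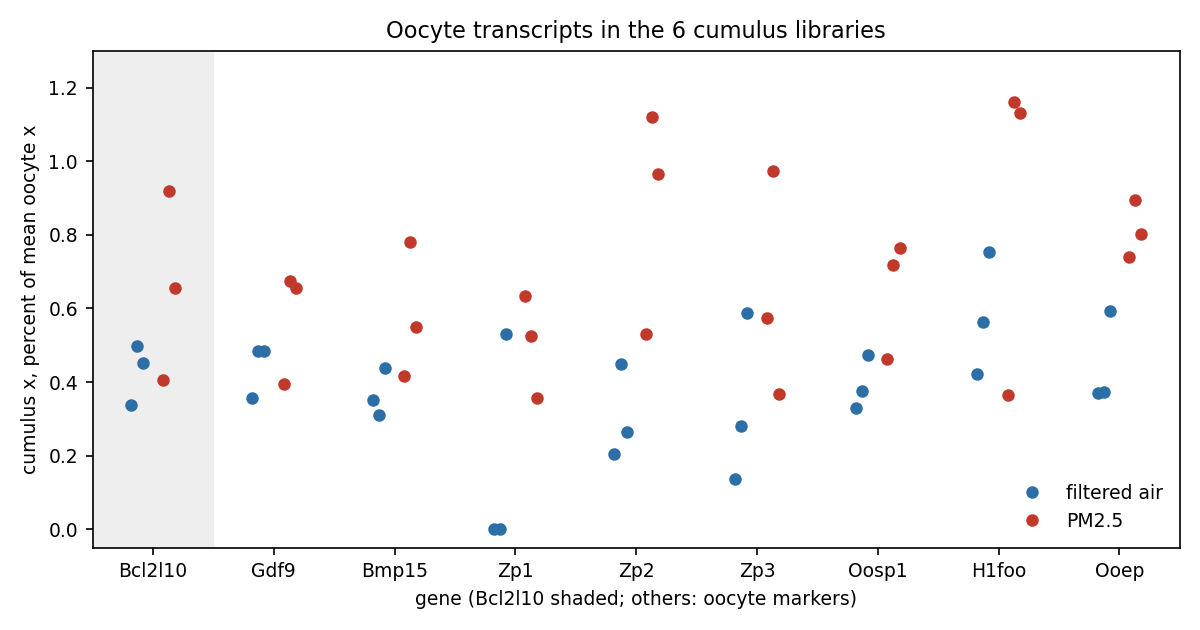
Level of Bcl2l10 (shaded) and 8 oocyte markers in the 6 cumulus libraries, as x in percent of the mean x of the oocyte libraries of the same exposure group (points, libraries; blue, filtered air; red, PM2.5). Bcl2l10 lies at 0.339% to 0.919%, inside the 0% to 1.16% of the markers.

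In the plot of oocyte transcripts in cumulus libraries, the points of Bcl2l10 sit among those of the markers. The summed x of these markers in cumulus cells was 32.1, 62.6 and 59.1 after PM2.5 and 26.7, 32.7 and 40.1 in filtered air. It was highest in PM2.5 replicates 2 and 3, the libraries in which Bcl2l10 was highest too. The genes whose log2 values were most like those of Bcl2l10 over the 18 libraries were Trim61 (Pearson r = 0.9984), Oog3 (0.9982), Obox2 (0.9980), Oosp3 (0.9980) and Zbed3 (0.9978), as a description over libraries of 3 tissues. In all, 56 named genes exceeded 0.99, so the pattern was shared by many transcripts.

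PM2.5 was then compared with filtered air within each tissue, over genes whose mean was at least 3. Of the 30 pairs of a member and a tissue, 9 entered the limma test, and 0 passed the adjusted threshold, with 1 at an unadjusted p under 0.05. The share of all tested genes called was 0.221% in oocytes, 0.167% in cumulus cells and 0% in blastocysts, where 191 of 4834 genes had an unadjusted p under 0.05. An unadjusted p under 0.05 was found for 8.33%, 23.3% and 3.95% of all tested genes in these tissues. Few genes of any kind therefore passed, and a member that missed the threshold is not shown to be equal between the groups. The intervals below say which differences remain possible.

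In oocytes Bcl2l10 was the sole member tested, and its exposed and control libraries overlapped. The difference was 0.07 ± 0.10 (SE; 95% interval -0.17 to 0.32, adjusted p = 0.851, limma). Under quantile normalization the estimate turned to -0.09. For the 9 members too low to test the differences ran from -0.24 (Mcl1) to 0.12 (Bok), on levels that did not exceed 3.31.

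In cumulus cells Bok was the only member of all 30 pairs whose exposed libraries all lay above the controls, and in 0 pairs did they all lie below. Among all genes tested in cumulus cells 26.3% had groups that did not overlap, 17.0% with PM2.5 higher and 9.29% with PM2.5 lower. In oocytes the share without overlap was 15.3% (5.02% higher, 10.3% lower) and in blastocysts 8.52% (3.62% and 4.90%). These shares cover tested genes, whereas 21 of the 30 pairs were too low to test. Bak1 in oocytes and Bcl2 in blastocysts, at 0 throughout, could not separate. Bok was higher by 0.85 ± 0.31 (95% interval 0.12 to 1.58, unadjusted p = 0.0286, adjusted p = 0.190, limma), so it did not pass. Without filtered-air replicate 3, the low library, the difference was 0.45 (adjusted p = 0.427). Without filtered-air replicate 1 it was 1.08, and over the 6 libraries left out the limma adjusted p ran from 0.132 to 0.474. Summed markers differed between the same groups: cumulus and granulosa markers (7 of 8 above 0 in every library of either group) were at 665 to 804 after PM2.5 against 475 to 558 in filtered air. That sum followed Inha, with means of 8.70 after PM2.5 and 7.77 in filtered air. Inhba (6.03 and 6.19), Fst (7.25 and 7.28), Cyp19a1 and Fshr had lower means after PM2.5. Nr5a2 (6.05 and 5.99), Foxl2 and Amh had slightly higher ones. Stromal markers (7 and 6 of 8) were at 5.29 to 6.70 against 3.08 to 3.69 and oviduct markers (3 and 2 of 6, Foxj1 at 0) at 1.63 to 3.52 against 0.542 to 0.983. Among the stromal genes Acta2, Col1a1, Col1a2, Col3a1 and Myh11 had higher means after PM2.5, and Tagln, Dcn and Pdgfra lower ones. The oviduct sum followed Ovgp1 (means 1.45 and 0.11). Muc1, Pax8 and Epcam (0.37 and 0.36) were little higher and Sec14l3 was lower (0.03 and 0.09). The part of any of these markers in the Bok difference was not tested.

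Bcl2l10 in cumulus cells was higher after PM2.5 by 0.59 ± 0.28 (95% interval -0.07 to 1.25, adjusted p = 0.237), with 1 exposed library inside the control range. The summed oocyte markers given above moved with it (8 of 8 above 0 in every PM2.5 cumulus library, 7 of 8 in filtered air), and their part was not tested. Without PM2.5 replicate 2 the difference was 0.33 and without replicate 1 it was 0.88, neither past the threshold (adjusted p from 0.0515 to 0.505 over the 6 libraries left out). Bax differed by 0.38 ± 0.23 (-0.15 to 0.92, adjusted p = 0.311) and Mcl1 by -0.12 ± 0.13 (-0.42 to 0.18, adjusted p = 0.553). With 1 library left out Bax ranged from 0.22 to 0.60, the last without PM2.5 replicate 1 (limma adjusted p from 0.0699 to 0.666). Erythroid markers varied from 1.93 to 894 between cumulus libraries of the same group, with no order by exposure. Leukocyte markers summed to 86.4 to 186 in PM2.5 cumulus libraries and to 90.2 to 131 in filtered-air ones. In oocytes and blastocysts their sum did not exceed 1.44. The part of such cells in the cumulus levels of the members was not tested. The 6 members too low to test differed by -0.35 to 0.32.

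In blastocysts all 4 tested members had overlapping groups and an adjusted p of 0.998. Bad differed by -0.39 ± 0.24 (95% interval -0.93 to 0.16), Mcl1 by -0.19 ± 0.15 (-0.51 to 0.14), Bok by -0.14 ± 0.20 (-0.58 to 0.30) and Bax by 0.11 ± 0.21 (-0.37 to 0.59). The other 6 members differed by -0.08 to 0.17. No interval in this tissue reached a log2 difference of 1.

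**Figure D4:**
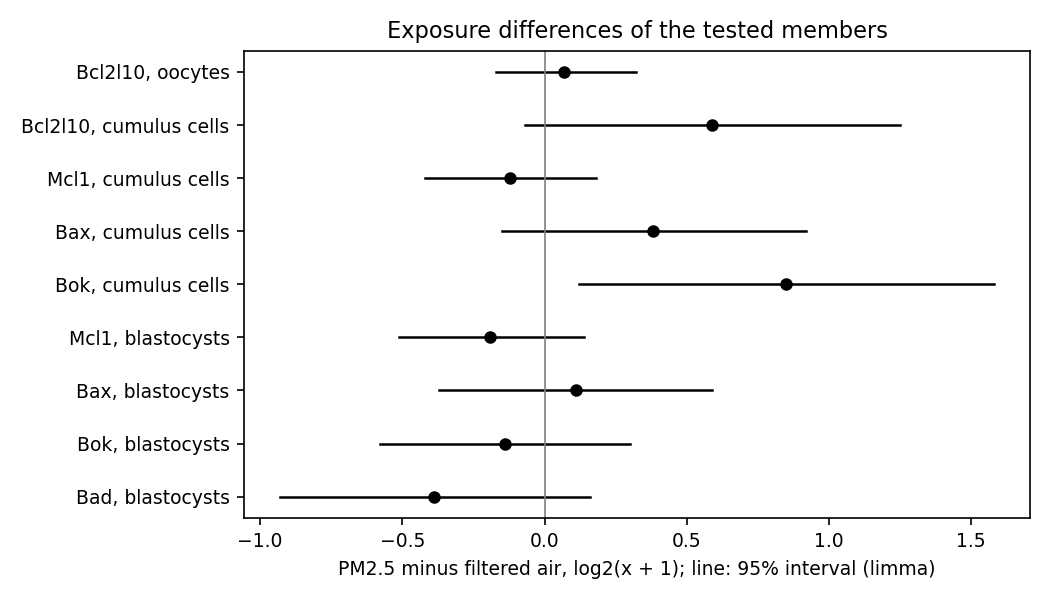
Difference between PM2.5 and filtered air, log2(x + 1), for the 9 tested pairs of a member and a tissue (points, limma estimates; lines, 95% intervals; 3 libraries a group). The interval of Bok in cumulus cells, 0.12 to 1.58, is the only one that does not reach 0, and its adjusted p is 0.190.

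The plot of exposure differences sets these intervals side by side; that of Bok in cumulus cells is the widest and that of Bcl2l10 in oocytes the narrowest of the 9. For 4 member results the exposure difference could be compared between tissues. Bok differed by 0.99 ± 0.36 between cumulus cells and blastocysts (unadjusted p = 0.0135, adjusted p = 0.231, where 0.259% of 3479 genes were called). Bax (0.28 ± 0.32, adjusted p = 0.667) and Mcl1 (0.07 ± 0.23, adjusted p = 0.909) did not pass either. Bcl2l10 differed by -0.52 ± 0.36 between oocytes and cumulus cells (adjusted p = 0.527, with 0.395% of 2027 genes called). No member was shown to respond differently in any tissue.

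The rest of the pathway was read from 6 lists of related genes. No gene of the lists passed for exposure in any tissue: limma called 0 of the 21 tested in oocytes, 0 of 29 in cumulus cells and 0 of 33 in blastocysts, with 3, 6 and 2 of them at an unadjusted p under 0.05. Of all tested genes limma called 0.221%, 0.167% and 0% in these tissues. An unadjusted p under 0.05 was found for 8.33%, 23.3% and 3.95% of them, so the counts are not a result about the lists. The smallest p belonged to Birc5, a mitotic inhibitor-of-apoptosis protein (0.72 ± 0.15 in cumulus cells, adjusted p = 0.176), and to Bnip3l, a mitophagy receptor (0.77 ± 0.16 in oocytes, adjusted p = 0.220). In oocytes Bnip3l stood at 4.90, 5.20 and 4.74 after PM2.5 and at 4.13, 4.01 and 4.40 in filtered air, and in cumulus cells its difference was -0.68 ± 0.27 (adjusted p = 0.201). Its oocyte groups did not overlap, as for 15.3% of all genes tested there. Birc5 and Bnip3l were values short of the threshold, not calls.

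Between tissues the lists moved in different ways. Of the 12 mitochondrial partners of BAX, BAK and BID, 9 were called lower in oocytes than in blastocysts of the filtered-air group and 0 higher, with a median of -2.17 against -0.59 over all tested genes, of which 50.7% were called lower and 33.6% higher. Mtch2, the mitochondrial receptor of truncated BID, stood at a difference of -5.57 ± 0.11 (adjusted p = 1.27e-16) and Bag1, a chaperone cofactor that binds BCL2, at -7.12 ± 0.19 (adjusted p = 1.85e-15). The channel genes Vdac3, Vdac2 and Vdac1 were lower too, at -3.35, -2.81 and -2.34. Against cumulus cells in filtered air, where 49.8% of all tested genes were called lower and 33.7% higher, 7 of the 12 were called lower and 1, Bcap31, higher (0.38 ± 0.16, adjusted p = 0.0333). After PM2.5 the counts were 9 lower and 0 higher, where 50.2% and 33.6% of all tested genes were. Bcap31 was then at -0.26 ± 0.16 (adjusted p = 0.125). Oocytes had low levels of several partners as well as of Bax. Bak1 was not tested and did not exceed 0.37 in blastocysts either. The filtered-air calls of Bid were lost under quantile normalization and median centring.

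Of the 17 other BCL2 family genes, 8 were tested, of which 5 were called lower and 2 higher in filtered-air oocytes than in cumulus cells (median -1.49 against -0.53 over all tested genes), a share called near that of all tested genes (83.5%). Bnip3 (-3.99 ± 0.17, adjusted p = 1.12e-12) and the survival gene Bcl2l2 (-2.67 ± 0.23, adjusted p = 1.32e-08) were lower, and Bbc3, which encodes PUMA, a target of p53, was at -1.77 ± 0.23 (adjusted p = 1.58e-06). Bik, a BH3-only gene, was higher in oocytes (1.65 ± 0.37, adjusted p = 0.000566). Bcl2l14 was listed at 0 in all 12 oocyte and cumulus libraries and had means of 3.10 and 2.89 in PM2.5 and filtered-air blastocysts. Hrk and Bcl2a1c were listed at 0 everywhere, and the near-identical Bcl2a1 copies were uncertain.

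Downstream of the pores, 6 of the 9 apoptosome and caspase genes were called lower and 1 higher in filtered-air oocytes than in blastocysts (median -1.66), near the 84.3% called of all tested genes. The executioner gene Casp6 was lower (-3.16 ± 0.17, adjusted p = 2.24e-11), as was Cycs, which encodes somatic cytochrome c (-2.0 ± 0.12, adjusted p = 5.70e-11). Casp8, the initiator that cleaves BID, was higher by 3.06 ± 0.28 (adjusted p = 2.51e-08). Cyct, the testis form of cytochrome c, was higher in oocytes than in cumulus cells (2.36 ± 0.34, adjusted p = 5.50e-06) and lower than in blastocysts (-2.10 ± 0.34, adjusted p = 1.99e-05). The caspases of oocytes did not all lie on 1 side.

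Among 8 inhibitors of apoptosis and their antagonists, 7 were tested, and 2 were called higher and 3 lower in oocytes than in cumulus cells in filtered air, and 3 and 2 after PM2.5. Of all tested genes 33.7% and 49.8% were called higher and lower in filtered air, and 33.6% and 50.2% after PM2.5. The split of the list is therefore not a result about it. Birc3, which encodes a ubiquitin ligase of this class, was higher by 4.80 ± 0.16 (adjusted p = 2.73e-14) and, against blastocysts, by 5.06 ± 0.16 (adjusted p = 1.10e-14). Its libraries stood at 7.42, 7.13 and 7.22 in PM2.5 oocytes and at 7.21, 7.23 and 7.21 in filtered-air oocytes, against at most 2.59 elsewhere. Xiap, which blocks caspases directly, was lower than in cumulus cells, at -1.83 ± 0.21 (adjusted p = 5.10e-07). Birc3 was thus, beside Bcl2l10, a survival-linked transcript with high levels in oocytes.

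Of 6 tested regulators of MCL1 turnover, 1 was called higher in oocytes than in cumulus cells of the filtered-air group and 3 lower, a split read against 33.7% and 49.8% of all tested genes and so not a result about the list. Usp9x, whose enzyme removes ubiquitin from MCL1, was higher by 2.08 ± 0.20 (adjusted p = 4.55e-08), and Tpt1, whose product binds MCL1, was lower, at -4.85 ± 0.12 (adjusted p = 1.45e-15). Of 9 tested upstream factors, 8 were called higher in oocytes than in blastocysts of the filtered-air group and 1 lower (median 0.89 against -0.59 over all tested genes, of which 33.6% were called higher). After PM2.5 the counts were 6 and 1, where 33.3% and 50.8% of all tested genes were called higher and lower. Foxo1 (4.10 ± 0.14, adjusted p = 2.92e-14) and Foxo3 (1.71 ± 0.15, adjusted p = 1.30e-08), transcription factors known to act on Bcl2l11, were higher, as was Trp53, which encodes p53 (1.70 ± 0.19, adjusted p = 2.02e-07). Ddit3, a stress-response factor, was lower, at -2.62 ± 0.22 (adjusted p = 7.92e-09). Trp63, the p53 relative known for quality control in mouse oocytes, was too low on average to test, with means of 2.05 and 2.15 in PM2.5 and filtered-air oocytes and at most 0.11 in other groups.

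**Figure D5:**
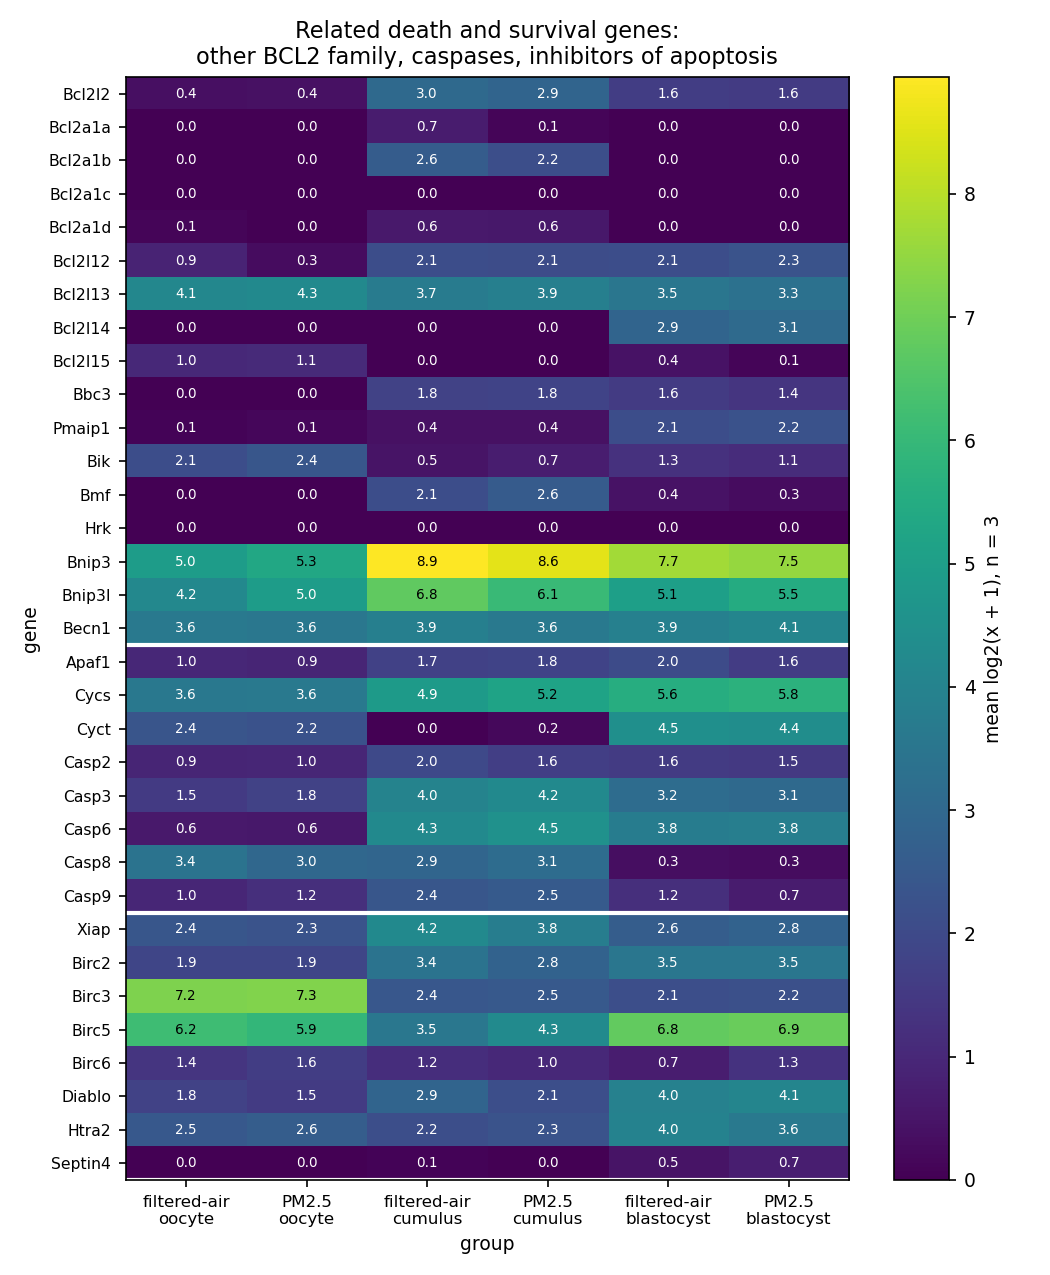
Mean level, log2(x + 1), of other BCL2 family genes, apoptosome and caspase genes and inhibitors of apoptosis in the 6 groups (n = 3 each; numbers, group means to 1 decimal; colour, the same means; white lines divide the lists). Birc3 has means of 7.21 and 7.26 in oocytes and at most 2.51 elsewhere, and Bcl2l14 is above 0 in blastocysts only.

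In the map of related genes the filtered-air and PM2.5 columns of each tissue stand side by side, and Bnip3 in cumulus cells has the highest means.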

How the data were processed

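Values were used as the authors deposited them: log2(x + 1) per gene and library, with x a normalized count and 1 the pseudocount. The submitters' processing notes list FastQC, Cuffnorm, DESeq 1.22.1 and mm10 without roles; no source used here names the aligner or annotation. How x was scaled sets every comparison between tissues and between genes, and no read counts were used. Samples were grouped by their titles, and no value column lacked a sample.

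All tests used limma 3.58.1 in R 4.3.3 (lmFit, eBayes with a mean-variance trend), two-sided, with Benjamini-Hochberg adjustment over all tested genes and a threshold of 0.05. Exposure was tested on the 6 libraries of a tissue for genes with a mean of at least 3, tissue on all 18 libraries for genes with a mean of at least 1, and at least 3 libraries above 0 were required in both. The difference of exposure differences used the genes tested in both tissues. The models were tested on simulated data first. Gene positions and promoters come from RefSeq (GRCm38.p6), and 27 symbols were updated from a gene ID table. Tables and figures were made with Python 3.11.15, pandas 2.3.3, numpy 2.4.6 and matplotlib 3.10.9.

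The members and lists were chosen with earlier results of these data known. All 10 members are named, and from each related list up to 6 genes with the smallest p in any comparison, of which 1 is not reported here; Bik, Bcl2l14, Hrk, Bcl2a1c, Bcap31 and Trp63 were named after their values were seen. For Bcl2l10 the 5 named genes with the highest Pearson correlation are given. Alternatives were other filters, pseudocounts of 0.1 and 10, quantile normalization, median centring, no trend, the replicate number as a block, the libraries of the compared groups alone, and each library left out.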

Additional observations from a re-analysis of the deposited data

How the results depend on the processing

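Over the alternatives run for 61 member results, the tissue differences kept direction and side of the threshold in 653 instances, lost the call in 22, gained it in 9 and changed sign in 6, and the exposure differences kept both in 124 and changed sign in 2. Signs turned for Bcl2l10 in oocytes after PM2.5 (-0.09, quantile normalization), Bid between cumulus cells and blastocysts in filtered air (-0.05, quantile normalization), Bid between oocytes and cumulus cells after PM2.5 (from a called -0.64 to 0.25, quantile normalization) and Mcl1 in the difference of exposure differences between cumulus cells and blastocysts (-0.09 with quantile normalization, -0.03 with median centring). With 1 library left out, the last ranged from -0.03 to 0.12, Bax exposure in blastocysts from -0.09 to 0.25, Bax between cumulus cells and blastocysts after PM2.5 from -0.04 to 0.34, Bcl2l1 there from -0.25 to 0.10, and Bid there in filtered air from -0.05 to 0.18. The cause was not tested.

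Genes called for exposure numbered 9 in oocytes (17 with a mean of at least 1; 2 to 11 with a library left out), 8 in cumulus cells (5 with no filter; 6 to 559, the last without PM2.5 replicate 1) and 0 in blastocysts (2 with a mean of at least 1, 1 with no filter; 0 to 4). In filtered air a mean of at least 3 gave 3510, 3540 and 2799 tissue calls between oocytes and cumulus cells, oocytes and blastocysts, and cumulus cells and blastocysts against 9105, 9192 and 7092, and no filter gave 14048 and 13981 for the first and second. After PM2.5 the counts were 3545, 3559 and 2727 against 9134, 9170 and 6934, and 14373, 13993 and 10492 with no filter, in each case from more or fewer genes tested. For the difference of exposure differences, 8 calls between oocytes and cumulus cells became 15 (mean of at least 1), 35 (no filter), 24 (quantile normalization), 3 (median centring) and 1 to 63 with a library left out. The 0 between oocytes and blastocysts became 2, 3, 12, 3 and 0 to 7 in that order, with 136 genes at an unadjusted p under 0.05. The 9 between cumulus cells and blastocysts became 14 (mean of at least 1), 24 (no filter), 29 (pseudocount 10), 19 (quantile normalization) and 6 to 93. Both highest counts, 63 and 93, were without PM2.5 cumulus replicate 1. Median centring moved the share of tissue calls that were higher in oocytes than in cumulus cells from 40.4% to 50.7% in filtered air.

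Replicate numbers did not pair the libraries by the rule used, that all correlations of same-numbered deviations exceed 0.1. Over 9 pairs of groups these ran from -0.12 to 0.09, and none of the pairs had all over 0.1. In 8 of 27 library pairs the own number was the closest. All 3 numbers were so for PM2.5 oocytes with PM2.5 cumulus cells (0.03 to 0.08). The same held for filtered-air cumulus cells with filtered-air blastocysts (0.02 to 0.09), so correlations this small do not settle pairing. With the replicate number as a block, calls for exposure were 3 in oocytes, 3 in cumulus cells and 0 in blastocysts, and 1, 0 and 8 for the differences of differences in the order above. Tissue calls with the block were 9059, 9167 and 6990 in filtered air and 9109, 9155 and 6794 after PM2.5. With no read totals, the precision of low members is known only from the spread of 3 libraries.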
